A study of Mus musculus with 11 samples.

Results

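The genes described here are the mouse cyclins, cyclin-dependent kinases (Cdk genes) and genes of DNA replication and mitosis. They were chosen by gene symbol alone: A, B, D and E cyclins, Cdk genes, Mcm genes, E2f genes, Cdc genes, Aurka, Aurkb, Mki67, Top2a and Pcna. Of the 31575 genes named in the data, 70 matched. They had 76 of the 31479 H3K27ac regions (52 genes), 15 of the 20086 H3K27me3 regions (8 genes) and 63 of the 22332 ISL1 windows. Pcna and Mcm7 matched the rule's names but had no row under their own symbols.

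Chromatin of pancreatic endocrine cells was mapped by CUT&Tag, an assay in which an antibody directs a transposase to cut and tag DNA beside a protein or histone mark. All mice carried the Neurod1-cre transgene, which acts in endocrine cells that express or once expressed Neurod1, and cells were sorted for the tdTomato protein of the Ai14 reporter. Control cells came from Isl1loxP/+;Neurod1-cre littermates, which are heterozygous for the floxed allele rather than wild type, and Isl1CKO cells came from Isl1loxP/loxP;Neurod1-cre animals, males and females on a C57BL/6 background. H3K27ac and H3K27me3 were measured at postnatal day 9 (P9) with 2 libraries per genotype and mark, each a pool of 3 to 4 pancreases and about 20000 cells. ISL1 itself, the LIM-homeodomain transcription factor deleted in Isl1CKO cells, was mapped in Control cells only, at E14.5 (2 libraries in a single column) and at P9 (1 library).

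Cyclins activate Cdk partners to move a cell through its division cycle: D cyclins with Cdk4 and Cdk6 in G1, E cyclins with Cdk2 at entry into S phase, and A and B cyclins with Cdk1 and Cdk2 up to mitosis. E2F factors, held back by the retinoblastoma proteins until Cdk activity rises, switch on genes of DNA synthesis, among them the Mcm helicase that opens replication origins. In the pancreas, Cdk4 and the D cyclins are known for driving the expansion of beta cells after birth, when islets grow by division of existing endocrine cells. H3K27ac marks active promoters and enhancers, and H3K27me3 is the Polycomb mark of silenced genes.

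Upstream sequence is shown for 6 genes on which the later results turn. Cdk1 and E2f7 measured lower for H3K27ac in both Isl1CKO libraries, Cdk4 measured higher, Cdk6 held both marks and an ISL1 value at both stages, E2f8 carried H3K27me3, and Top2a had an ISL1 value at P9. Each run is the 250 bases before the RefSeq start site in GRCm38.p6, a different build from the GRCm39 regions of the data, 5′ to 3′ on the gene's strand.
Cdk1: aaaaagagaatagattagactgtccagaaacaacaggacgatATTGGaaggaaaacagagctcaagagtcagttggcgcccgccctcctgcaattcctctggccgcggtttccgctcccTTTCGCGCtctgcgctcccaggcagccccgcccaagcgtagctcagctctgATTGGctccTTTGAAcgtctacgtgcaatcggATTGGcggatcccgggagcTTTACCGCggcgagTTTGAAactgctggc
Cdk4: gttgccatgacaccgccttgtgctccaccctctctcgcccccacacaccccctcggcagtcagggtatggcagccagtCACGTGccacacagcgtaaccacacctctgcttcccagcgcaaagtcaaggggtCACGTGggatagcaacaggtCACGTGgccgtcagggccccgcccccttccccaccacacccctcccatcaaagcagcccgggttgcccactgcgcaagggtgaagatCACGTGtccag
Cdk6: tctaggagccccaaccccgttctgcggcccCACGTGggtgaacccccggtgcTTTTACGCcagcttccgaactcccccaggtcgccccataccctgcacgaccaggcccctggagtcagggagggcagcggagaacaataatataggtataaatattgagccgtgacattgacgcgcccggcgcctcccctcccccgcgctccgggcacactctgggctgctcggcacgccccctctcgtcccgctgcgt
E2f7: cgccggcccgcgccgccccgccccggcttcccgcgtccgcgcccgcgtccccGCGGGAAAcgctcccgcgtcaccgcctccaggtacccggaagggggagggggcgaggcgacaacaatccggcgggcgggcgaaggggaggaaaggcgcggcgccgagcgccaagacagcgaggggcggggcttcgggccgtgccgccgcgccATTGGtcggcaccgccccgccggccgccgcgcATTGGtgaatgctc
E2f8: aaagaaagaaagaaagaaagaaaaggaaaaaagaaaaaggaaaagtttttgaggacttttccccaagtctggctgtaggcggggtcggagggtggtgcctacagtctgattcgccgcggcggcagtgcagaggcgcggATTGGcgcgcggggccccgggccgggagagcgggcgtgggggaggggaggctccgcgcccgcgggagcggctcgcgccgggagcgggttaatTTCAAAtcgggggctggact
Top2a: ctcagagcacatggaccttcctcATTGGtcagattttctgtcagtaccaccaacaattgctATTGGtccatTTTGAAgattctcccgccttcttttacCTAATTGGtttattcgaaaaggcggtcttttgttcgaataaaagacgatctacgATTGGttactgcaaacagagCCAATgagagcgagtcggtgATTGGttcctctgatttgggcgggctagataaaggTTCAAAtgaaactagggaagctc
The runs lie at chr10:69352913-69353162 (minus strand, Cdk1), chr10:127063285-127063534 (plus, Cdk4), chr5:3343643-3343892 (plus, Cdk6), chr10:110745189-110745438 (plus, E2f7), chr7:48881597-48881846 (minus, E2f8) and chr11:99024190-99024439 (minus, Top2a). Capitals mark letter matches on either strand to CCAAT, to TTTGAA (the CHR element of G2 and mitosis genes), to TTTNNCGC (E2F type), to CACGTG (an E-box) and to CTAATNG (LIM-homeodomain type). In Top2a the CTAATNG match overlaps a CCAAT match read on the other strand.

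The matches differed between genes. Cdk1 held 3 CCAAT, 2 TTTGAA and 2 TTTNNCGC matches, while Cdk4 held 4 CACGTG matches and none of the other motifs. By symbol, 55 of the 70 genes matched the table, with 63 start sites. CCAAT stood before 54.0% of these starts against 33.8% of all 32851 starts in the table, and TTTGAA before 23.8% against 16%. TTTNNCGC stood before 14.3% against 4.28%, CACGTG before 12.7% against 6.02%, and CTAATNG before 4.76% against 5.07%. All 9 genes with TTTNNCGC were cell cycle kinases (3 of 4 matched), helicase and licensing genes (3 of 10), E2f genes (2 of 6) or mitotic regulators and other Cdc genes (1 of 16). A letter match is a description of the sequence and no evidence of binding.

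Region counts per library summed to 681047 to 1815511 for H3K27ac and 1202276 to 2276887 for H3K27me3. Values are given as CPM, counts scaled to a common library size with TMM. On that scale a count of 0 allows up to 3 counts, or 1.64 to 4.56 CPM in the H3K27ac libraries and 1.28 to 2.64 in the H3K27me3 libraries, for counting error only. The Control replicate 2 H3K27ac library stood apart: its correlation with the others over all regions was 0.451 to 0.497, against 0.680 to 0.722 among the other 3. The H3K27ac promoter of Isl1 itself measured 63.3 and 42.8 CPM in Control and 45.6 and 45.7 in Isl1CKO, a region whose place relative to the deleted part is not given, so it is no check of the genotype. Endocrine marker genes had an H3K27ac promoter region in 9 of 12 cases, all but Ins2, Gcg and Sst. An H3K27me3 promoter region was listed for 3 of them, Sst, Pdx1 and Pax6, so Pdx1 and Pax6 had promoter regions of both marks. None of the acinar, endothelial, mesenchymal, immune and glial markers had an H3K27ac promoter region. Outside promoters, H3K27ac was listed for 1 of 6 acinar, 2 of 5 endothelial, 1 of 5 mesenchymal, 1 of 5 immune and 1 of 4 glial markers. Ductal markers had an H3K27ac promoter region in 2 of 6 cases. Those 2 ductal promoters together measured 26.2 and 54.8 CPM in Control and 15.2 and 22.5 in Isl1CKO, and their part in the results was not tested. Cells were measured in bulk, so fewer cells with a mark and less of it per cell cannot be told apart.

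Most of the cell cycle genes had an acetylated promoter at P9. An H3K27ac promoter region was listed for 49 of the 70, and Aurkb, Cdc14a and Cdk14 had H3K27ac only outside promoters. Of the 63 genes with an ISL1 window, 68.3% had an H3K27ac promoter against 38.7% of all 22247 genes with such a window, and promoters made up 73.7% of these genes' H3K27ac regions against 47.6% overall. The 18 genes without any H3K27ac region were Ccna1, Ccnb3, Ccne2, Cdk15, Cdk17, Cdk18, Cdk19, Mcm3, Mcm5, Mcm8, Mcm10, Cdc5l, Cdc6, Cdc20b, Cdc25c, Cdc34b, E2f8 and Top2a. Among them Ccna1 and Ccnb3 are known as germ cell cyclins, whereas Mcm3, Mcm5, Mcm10, Cdc6 and Top2a are general genes of S phase and chromosome structure. By role, an H3K27ac promoter was listed for 7 of 10 cyclins, 4 of 4 cell cycle kinases, 10 of 15 transcriptional and other kinases, 6 of 11 helicase and licensing genes, 7 of 8 E2f genes, and 14 of 20 mitotic regulators and other Cdc genes.

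The amount of H3K27ac per length was near that of other promoters. In Control, the 49 promoters had a median of 27.5 CPM per kb (12.4 to 72.5), against 28.1 over the promoters of 12573 genes. Cdc26, a subunit of the anaphase-promoting complex that marks mitotic proteins for destruction, had the highest mean at 72.5 CPM per kb (SD 37.5, n = 2). That region lies in the ISL1 window of the neighbouring gene Prpf4, so the mark cannot be assigned to Cdc26 alone. Cdk13, a kinase of RNA polymerase II rather than of the division cycle, followed at 56.3 (SD 5.96), and E2f7, a repressor member of the E2F family, at 49.0 (SD 33.8). The order rested on Control replicate 2: in Control replicate 1 alone Cdk13 was highest at 60.6 CPM per kb, Cdc26 was at 46 and E2f7 at 25.1. E2f2 had the lowest mean at 12.4 CPM per kb (SD 4.99), while in Control replicate 1 alone Aurka was lowest at 8.79.

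No H3K27ac region of these genes passed the test between genotypes. With edgeR's quasi-likelihood test and Benjamini-Hochberg adjustment over all regions, 0 of 75 tested regions were called (0% of all 30036 regions), and DESeq2 also called 0 (0.109% of all). At an unadjusted p under 0.05 there were 4 of 75, or 5.33%, against 5.83% of all regions. Both Isl1CKO libraries lay above both Control libraries in 11 regions (14.7%, against 18.1% of all) and below in 16 (21.3%, against 19.4%). These shares are near the background. The median log2 fold change of the 49 promoters was 0.06, beside 0.07 over all genes' promoters. Without Control replicate 2 the median was -0.18, beside 0.00 over all genes.

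**Figure D1:**
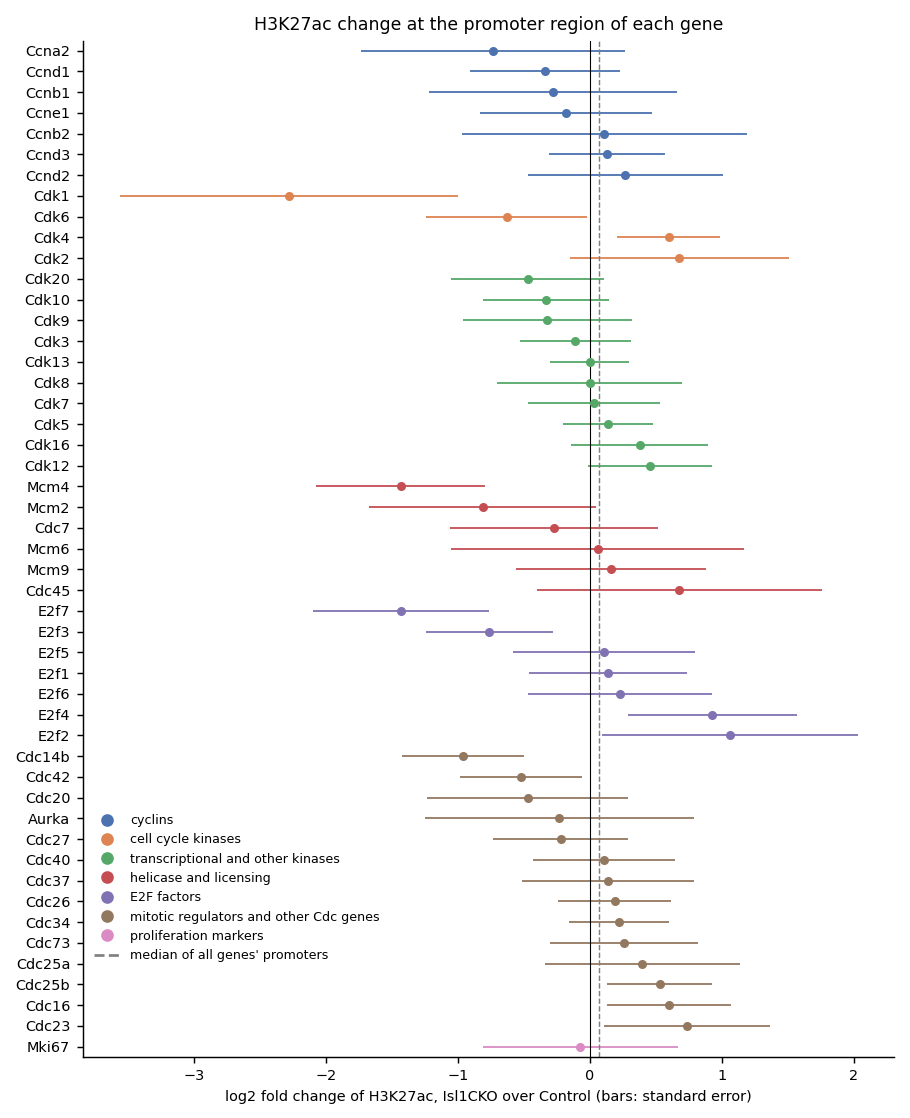
log2 fold change of H3K27ac at P9, Isl1CKO over Control (horizontal axis, bars are the standard error from edgeR), for the promoter region of each of the 49 genes (vertical axis), coloured by role. With TMM scaling, points lie on both sides of 0 in each role with more than 1 gene, and the dashed line at 0.07 is the median over all genes' promoters.

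Of 7 cyclin promoters, 3 measured higher and 4 lower in Isl1CKO with TMM scaling, with a median log2 fold change of -0.18 (-0.30 without Control replicate 2). With the library sizes that the authors' fold changes imply, all 7 measured higher (median 0.51), as did 10402 of the 12378 promoters of all genes (median 0.72). Ccnd1, the D cyclin that links growth signals to G1 kinases, measured 36.3 and 38.9 CPM in Control and 28.9 and 30.2 in Isl1CKO, so that the groups did not overlap (log2 fold change -0.34 ± 0.57 SE, adjusted p = 0.953, edgeR; 0.30 with the implied sizes). Ccnd2, the D cyclin most tied to postnatal beta cell growth, measured 14.7 and 19.2 CPM in Control and 16.7 and 23.9 in Isl1CKO. Its groups overlapped, as did those of Ccnd3. At its main promoter region Ccnd3 measured 55.6 and 76.7 CPM in Control and 97.4 and 49.9 in Isl1CKO. The genotypes overlapped at the S phase and mitotic cyclins too. Ccne1, the partner of Cdk2, measured 37.8 and 20.8 CPM in Control and 32.0 and 20.4 in Isl1CKO. Ccna2, needed in S phase and G2, measured 18.5 and 13.7 in Control and 15.2 and 4.92 in Isl1CKO. Ccnb1, the mitotic partner of Cdk1, measured 16.2 and 12.6 in Control and 7.61 and 15.5 in Isl1CKO. The standard error of the log2 fold change was 0.65 for Ccne1, 1.00 for Ccna2 and 0.94 for Ccnb1, wider than each of these changes.

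The kinases of the division cycle split in direction. Cdk4, the G1 kinase of D cyclins, had a promoter region (chr10:126898993-126900775, GRCm39) with 71.0 and 59.7 CPM in the Control libraries and 120 and 80.1 in the mutant ones. Both Isl1CKO libraries were above both Control libraries, and the change did not pass the test (log2 fold change 0.60 ± 0.39 SE, adjusted p = 0.898, edgeR). Cdk6, which pairs with the same cyclins, measured lower at its main promoter region, 2079 bp after its start. There the Control libraries had 36.3 and 42.8 CPM and the Isl1CKO libraries 15.2 and 34.4 (-0.63 ± 0.61 SE). Cdk1, the kinase that drives entry into mitosis, measured 7.72 and 28.0 CPM in Control and 0 and 6.32 in Isl1CKO (chr10:69188563-69189138). Those values are counts of 10, 51, 0 and 9, and the fitted log2 fold change of -2.28 ± 1.28 SE had an adjusted p = 0.875 (edgeR). It was -1.07 without Control replicate 2, whose 51 counts are most of the Control signal. Cdk2, the partner of the E and A cyclins, overlapped between the groups at 22.4 and 8.22 CPM in Control and 38.0 and 11.9 in Isl1CKO.

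The kinases that act mainly outside the division cycle had a narrow range of log2 fold changes, close in width to that of the cyclins. Cdk7, Cdk9, Cdk12 and Cdk13 phosphorylate RNA polymerase II, Cdk8 belongs to the Mediator complex, and Cdk5 is best known from neurons and beta cells. The 10 promoters of this group had log2 fold changes between -0.47 and 0.46, beside -0.73 to 0.27 for the 7 cyclins. Their median was 0.00, while with the implied sizes all 10 measured higher (median 0.60). Control libraries differed widely at some of them, such as Cdk8 at 60.2 and 10.4 CPM and Cdk12 at 86.5 and 32.9. Cdk13 had the highest promoter CPM among the 49. It was at 164 and 141 CPM in Control (SD 16.1), at 137 in Isl1CKO replicate 1 and above all of these in Isl1CKO replicate 2 (SD 20.9), with a log2 fold change of 0.00 ± 0.30 SE. Both Isl1CKO libraries exceeded both Control libraries at Cdk16 (35.5 and 35.6 against 48.7 and 44.3 CPM) and were below them at Cdk10 and Cdk20. Cdk14 had a single H3K27ac region, 39857 bp after its start, at 27 and 0.548 CPM in Control and 15.2 and 33.7 in Isl1CKO. There, Control replicate 2 alone was near 0.

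**Figure D2:**
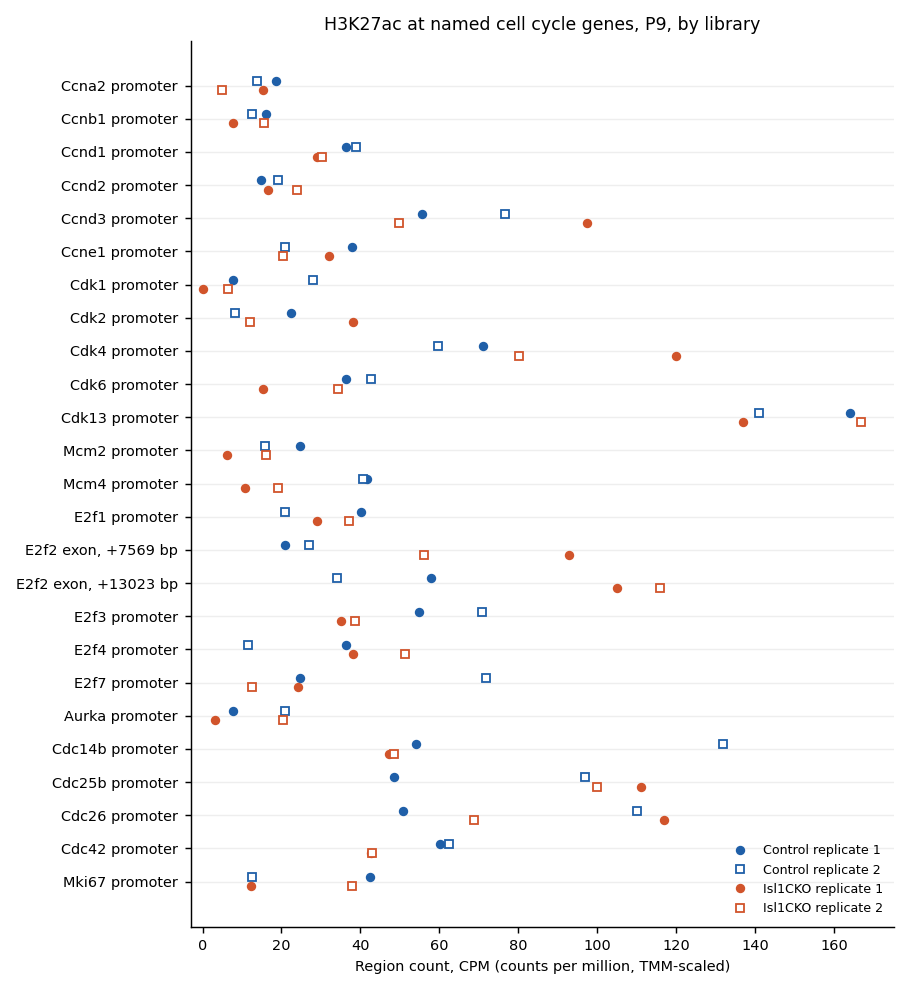
H3K27ac CPM (horizontal axis) in each of the 4 libraries for the regions described by name (vertical axis); blue is Control, orange Isl1CKO, filled circles replicate 1 and open squares replicate 2. Isl1CKO points lie to the right of both Control points at both E2f2 exon regions, Cdk4, E2f4 and Cdc25b, and to the left at Mcm4, E2f3, Cdc42, Ccnd1, Cdk1, Cdk6, E2f7 and Cdc14b.

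Among helicase and licensing genes, Mcm4 stood lowest. Mcm4, a subunit of the replicative helicase, measured 41.7 and 40.6 CPM in Control and 10.7 and 19.0 in Isl1CKO (chr16:15454735-15456063), with Control libraries close to each other. Its log2 fold change was -1.43 ± 0.64 SE (adjusted p = 0.850, edgeR) and -1.44 without Control replicate 2. The region is shared with the start of the neighbouring gene Prkdc, whose ISL1 window covers it, so the mark cannot be assigned to Mcm4 alone. Mcm2 of the same complex measured 24.7 and 15.9 CPM in Control and 6.09 and 16.2 in Isl1CKO, where replicates overlapped. Mcm6 (log2 fold change 0.06), Mcm9 (0.16) and Cdc45 (0.68) measured at or above the Control mean, and Cdc7, the kinase that fires origins, below it (-0.27). The median of the 6 promoters was -0.11, but leaving out Control replicate 1 gave 0.39 and leaving out Control replicate 2 gave -0.62, so its sign rests on those libraries.

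The E2f genes held the 2 regions with the smallest p of all 75. E2f2, an activating E2F, had 3 H3K27ac regions, and both Isl1CKO libraries were above both Control libraries in each. At an exon 7569 bp after its start (chr4:135907274-135909106) the values were 20.8 and 26.9 CPM in Control and 92.8 and 56.2 in Isl1CKO, a log2 fold change of 1.62 ± 0.51 SE (adjusted p = 0.846, edgeR). At an exon 13023 bp after the start (chr4:135912728-135914785) they were 57.9 and 34.0 CPM in Control and 105 and 116 in Isl1CKO, or 1.28 ± 0.41 SE (adjusted p = 0.846, edgeR). The promoter region itself was low, at 10.8 and 6.03 CPM in Control and 16.7 and 18.3 in Isl1CKO. Without Control replicate 2 the exon values were 1.80 and 0.93. In the authors' deposited table these 3 regions have log2 fold changes of 2.31, 1.85 and 1.57 (adjusted p of 5.40e-08, 2.66e-06 and 0.00578). With the library sizes that the authors' fold changes imply, the exon values were 2.44 and 1.86, each at an adjusted p = 0.902 (edgeR). For H3K27ac, the implied sizes came with an implied dispersion, edgeR's measure of spread between replicates, of 0.04. The mean absolute error against the authors' log2 fold changes was 3.03e-10. Whether that dispersion accounts for the difference in adjusted p was not tested.

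Other E2f promoters measured higher or lower, and none passed the test. E2f4, a repressor in quiescent cells, measured 36.3 and 11.5 CPM in Control and 38.0 and 51.3 in Isl1CKO (0.93 ± 0.64 SE; 0.31 without Control replicate 2 and 1.96 without Control replicate 1). E2f3, an activator, measured 54.8 and 70.7 CPM in Control and 35.0 and 38.6 in Isl1CKO (-0.76 ± 0.48 SE). E2f7, a repressor made in S phase, measured 24.7 and 71.8 CPM in Control and 24.3 and 12.6 in Isl1CKO (chr10:110580729-110581713), a log2 fold change of -1.43 ± 0.67 SE (adjusted p = 0.854, edgeR). The E2f7 value rested on Control replicate 2: it was -0.47 without that library, and -2.02 (adjusted p = 0.0489) without Control replicate 1. A distal region at -37775 bp from the E2f7 start also had both Isl1CKO values, 1.52 and 6.32 CPM, below both Control values, 11.6 and 20.3. E2f1 overlapped between genotypes at 40.1 and 20.8 CPM in Control and 28.9 and 37.2 in Isl1CKO.

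Among mitotic regulators and other Cdc genes, 9 of 14 promoters measured higher and 5 lower in Isl1CKO, with a median of 0.16. The median was 0.06 with either Control library left out, 0.36 without Isl1CKO replicate 1 and -0.07 without Isl1CKO replicate 2, and with the implied sizes 13 of the 14 measured higher. Cdc25b, a phosphatase that activates Cdk1, measured 48.6 and 97.0 CPM in Control and 111 and 100 in Isl1CKO (0.53 ± 0.40 SE, adjusted p = 0.912, edgeR). It was 1.11 with Control replicate 2 left out and 0.12 with Control replicate 1 left out. Cdc14b, a phosphatase of mitotic exit, measured 54.0 and 132 CPM in Control and 47.2 and 48.5 in Isl1CKO (-0.96 ± 0.46 SE, adjusted p = 0.856). It too rested on Control replicate 2, since the value without that library was -0.18. Cdc42, a regulator of cell polarity and not a division kinase, measured 60.2 and 62.5 CPM in Control and 42.6 and 42.9 in Isl1CKO. Replicates agreed closely there, and the fold change was -0.52 ± 0.46 SE (adjusted p = 0.920, edgeR; 0.13 with the authors' implied sizes). Cdc26 overlapped between the groups at 50.9 and 110 CPM in Control and 117 and 68.9 in Isl1CKO, and so did Aurka, a kinase of the spindle poles, at 7.72 and 20.8 in Control and 3.04 and 20.4 in Isl1CKO. Mki67, the standard marker of dividing cells, measured 42.5 and 12.6 CPM in Control and 12.2 and 37.9 in Isl1CKO, with each genotype spanning the other's range.

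In the authors' deposited table, 19 of the 76 H3K27ac regions were called higher in Isl1CKO (25%, against 27.8% of all regions) and 4 lower (5.26%, against 9.25%). The regions called lower there were the Cdk1 promoter, the distal E2f7 region, an intron of Cdc14a and an intron of Ccnd3. The Ccnd3 intron, 30532 bp after its start, had counts of 1, 62, 0 and 2, so that 1 Control library supplied almost all of them. Its Isl1CKO to Control ratio of 0.0476 has a counting interval of 0.00564 to 0.179, and the region was too low in the other libraries for the edgeR test. The authors' scaling differs from TMM: over all H3K27ac regions the median log2 fold change was -0.03 with TMM and 0.61 with the library sizes their fold changes imply, and for H3K27me3 it was 0.05 and -0.51. With those sizes the 49 promoters had a median of 0.60, beside 0.72 over all genes' promoters. edgeR with those sizes called 0 regions of these genes for H3K27ac (0.00999% of all regions) and 0 for H3K27me3 (0% of all).

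H3K27me3 was rare on these genes. A promoter region of the Polycomb mark was listed for 4 of them, Ccnd1, Cdk6, E2f8 and Cdc20b, and 4.76% of the 63 genes with an ISL1 window had one, against 13.9% of all such genes. The other genes with the mark had it only outside promoters: Ccne1, Cdc23, Cdk14 and Cdk18. In Control the 4 promoters had a median of 28.9 CPM per kb (24.1 to 32.4), beside 18 over all genes' promoters with the mark.

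No H3K27me3 region passed the test either. edgeR called 0 of 14 tested regions (0% of all 19434), with 0 at an unadjusted p under 0.05 (4.34% of all), and DESeq2 called 0 (0.673% of all). Both Isl1CKO libraries were above both Control libraries in 0 of 14 regions (18.7% of all) and below in 3 (21.4%, against 16.7%). E2f8, a repressor that acts with E2f7, measured 126 and 110 CPM in Control and 86.7 and 63.3 in Isl1CKO (chr7:48530615-48534721), a log2 fold change of -0.65 ± 0.35 SE (adjusted p = 1.000, edgeR). Cdc20b, a relative of Cdc20 that is known from multiciliated cells, measured 177 ± 1.68 CPM (SD, n = 2) in Control and 150 and 135 in Isl1CKO (-0.31 ± 0.26 SE, adjusted p = 1.000). In these 2 promoters the groups did not overlap, and E2f8 and Cdc20b had no H3K27ac region at all. H3K27me3 also measured lower at the promoters of 4 of 4 mesenchymal markers with the mark (median -0.51, summed level 1398 and 1347 CPM in Control against 1016 and 973 in Isl1CKO) and of 2 of 2 ductal markers (median -0.69, 63.4 and 49.3 against 44.9 and 24.7). It measured lower in 1 of 2 acinar, 1 of 2 endothelial, 0 of 2 glial and 0 of 3 endocrine markers, and their part in the result was not tested. Over all genes' promoters with the mark, 3005 of 4869 measured lower, with a median of -0.14. The third region below both Control libraries was an intron of Cdk14 at 8.81 and 18.8 CPM in Control and 6.41 and 2.13 in Isl1CKO.

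**Figure D3:**
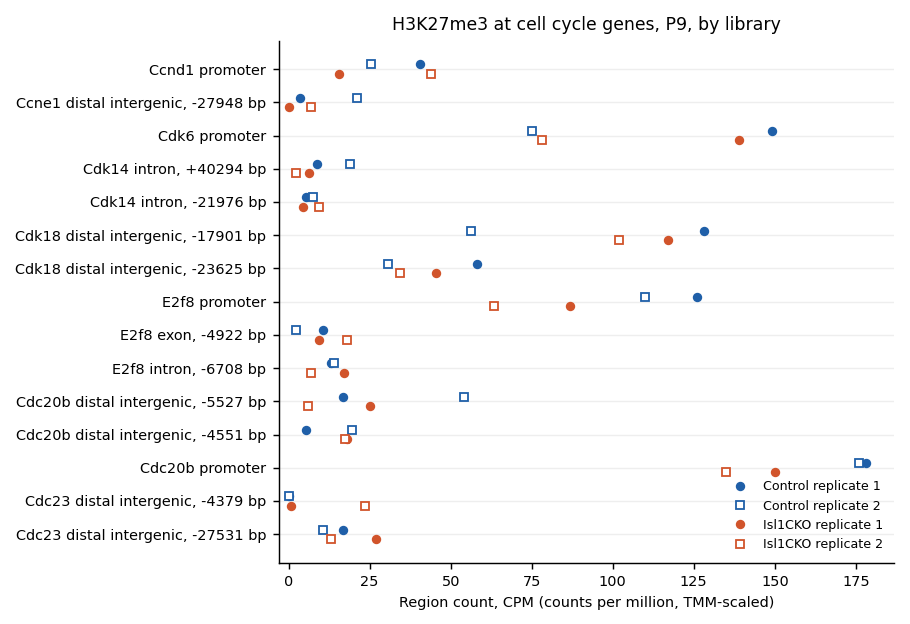
H3K27me3 CPM (horizontal axis) in each of the 4 libraries for all 15 regions (vertical axis, with the distance from the gene's start where the region is not a promoter); colours and symbols mark genotype and replicate. Isl1CKO points lie to the left of both Control points at the E2f8 and Cdc20b promoters, and the Cdk6 promoter separates replicate 1 from replicate 2 rather than the genotypes.

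Ccnd1 and Cdk6 were the only genes of the 70 with promoter regions of both marks. Their H3K27me3 regions overlapped H3K27ac by 757 bp at Ccnd1 and by 1791 bp at Cdk6, where 2 H3K27ac regions lie inside or across the broad H3K27me3 region. Those 2 lie 1031 and 2079 bp after the Cdk6 start, and no H3K27ac region of Cdk6 lies nearer to it. At Cdk6 the H3K27me3 values were 149 and 75.2 CPM in Control and 139 and 78.2 in Isl1CKO, so replicates differed more than genotypes did. At Ccnd1 they were 40.5 and 25.3 in Control and 15.4 and 43.8 in Isl1CKO. Bulk counts do not show whether both marks lie on the same cells. A distal region at -4379 bp from the Cdc23 start had 0, 0, 2 and 55 counts, at least 11.5-fold higher in Isl1CKO over the group, but it rested on 1 library and was not tested. The authors' deposited table calls that region higher and 5 of the 15 lower (6.67% and 33.3%, against 9.17% and 29.6% of all regions), the latter including the E2f8 and Cdc20b promoters.

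ISL1 values at these genes were common at E14.5 and scarce at P9. The deposited file gives a whole number per window of about 6000 bp around a start site and does not state its unit, so it is called the ISL1 value. At E14.5 it was at least 1 in 39 of the 63 windows (61.9%, against 37.7% of all windows), with a mean of 1.22 against 0.746. At P9 it was at least 1 in 3 windows (4.76%, against 8.86%), with a mean of 0.0794 against 0.101. A P9 value of at least 2 was found in 2 windows (3.17%, against 0.927% of all windows). With so few windows, the P9 shares do not place these genes above or below the rest. The stages come from 2 pooled libraries and from 1 library, and their depth is not given in the sources used here, so no value was tested between them.

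The E14.5 values were low at most windows. Of the 63 windows, 24 were at 0, 22 at 1, 9 at 2, and 8 at 3 or more. Ccnd2 had the highest ISL1 value at 8, ahead of Ccne1 at 2 and Ccnd1 at 1 among the cyclins. Cdk13 followed at 6, Cdc42 at 5, and Cdk10, Cdk12 and E2f4 at 4. Of these 6 genes, Ccnd2 and E2f4 belong to the division machinery proper, and Cdk12 and Cdk13 to transcription. Cdk4 and Cdk16 were at 3, and Cdk6, E2f2, Mcm10 and Cdc25a were among those at 2. The windows of E2f4 (7562 bp) and Cdk4 (9350 bp) were wider than 6000 bp, so their values cover more sequence. Cdk1, E2f1, E2f3, E2f7, Aurka and Mki67 were each at 1, and Ccna2, Ccnb1, Cdk2, Mcm2, Mcm5 and Top2a at 0.

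**Figure D4:**
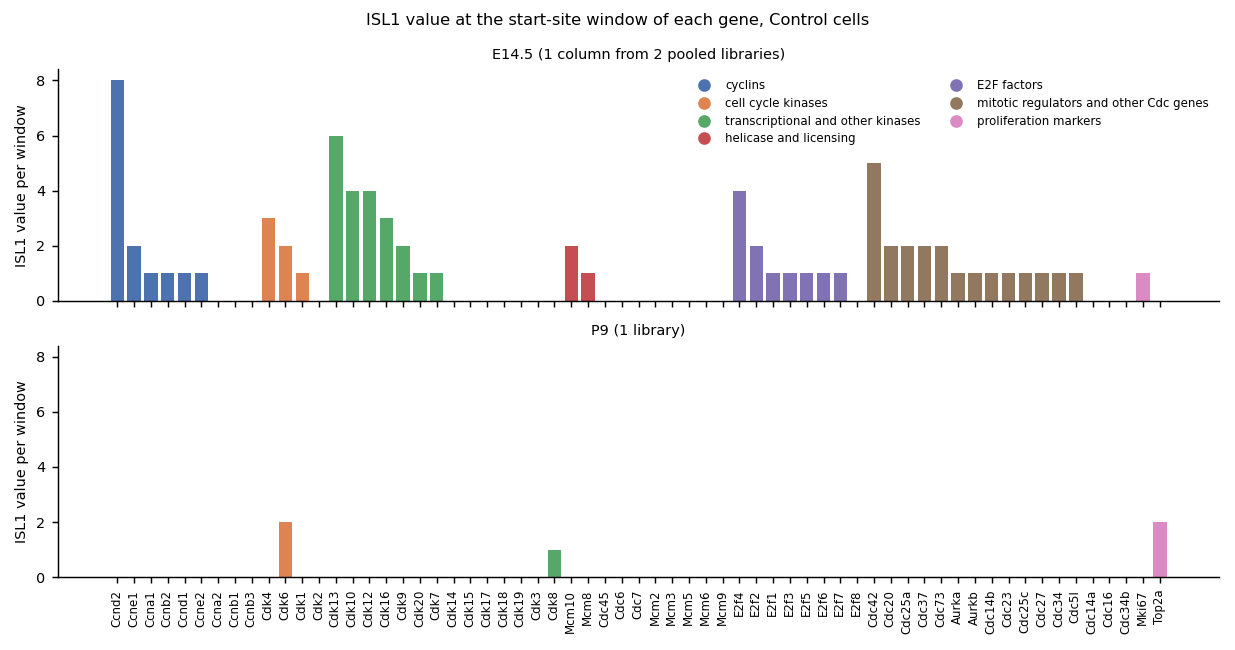
ISL1 value (vertical axis, whole numbers of unstated unit) in the start-site window of each of the 63 genes (horizontal axis), at E14.5 above and P9 below, coloured by role. Ccnd2 reaches 8 and Cdk13 6 at E14.5, 8 of 10 helicase and licensing genes are at 0, and at P9 only Cdk6, Cdk8 and Top2a are above 0.

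The roles differed in how many windows had a value at E14.5. It was at least 1 in 7 of 8 E2f genes, 13 of 16 mitotic regulators and other Cdc genes, 6 of 9 cyclins, 3 of 4 cell cycle kinases and 7 of 14 transcriptional and other kinases. Helicase and licensing genes had a value in 2 of 10, Mcm10 (2) and Mcm8 (1). At P9 the windows above 0 were Cdk6 and Top2a, each at 2, and Cdk8 at 1. Top2a, which untangles chromosomes before they separate, was at 0 at E14.5 and had no H3K27ac region at P9. Cdk6 alone had a value of 2 at both stages.

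At E14.5, windows with an acetylated promoter more often held an ISL1 value, in these genes as in all. The value was at least 1 in 32 of 43 genes with an H3K27ac promoter (74.4%) and in 7 of 20 without (35.0%). Over all genes these shares were 61.9% and 22.6%. At P9 the shares were 4.65% and 5.00% in these genes, against 11.1% and 7.43% over all genes. H3K27ac was measured at P9, so the E14.5 comparison joins different ages. The H3K27ac change did not follow the ISL1 value in order: the median log2 fold change was 0.00 for 11 genes at 0, -0.15 for 16 at 1 and 0.20 for 16 at 2 or more. Ccnd2, highest for ISL1, had an H3K27ac log2 fold change of 0.27 ± 0.74 SE, and Cdk13, next in order, 0.00 ± 0.30 SE.

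The remaining 7 of the 70 genes had no ISL1 window under their own symbol and lie in windows named for a neighbour. The window of Slc4a2 beside Cdk5 had an E14.5 value of 4, that of Spef1 beside Cdc25b 3, and that of Wasf1 beside Cdc40 2. The windows of Taf8 beside Ccnd3 and Prpf4 beside Cdc26 were at 1, and that of Prkdc beside Mcm4 and those near Cdc20b at 0. All of these were at 0 at P9. The H3K27ac promoter regions of Cdk5, Cdc25b, Cdc40, Ccnd3 and Cdc26 lie inside these neighbours' windows, as that of Mcm4 does. Their mark cannot be assigned to these genes alone.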

How the data were processed

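CUT&Tag region tables from mouse pancreatic endocrine cells were used. For each histone mark, the deposited table gives whole counts of every library in shared regions, per the file headers, beside the authors' log2 fold change and adjusted p-value. Per the submitters' processing notes, the tools were edgeR 4.0.16, ChIPseeker 1.38.0, MACS2 2.2.6, Bowtie2 2.3.5.1 and Picard 2.27.4, with the build GRCm39; their settings are not given in the sources used here. The deposited ISL1 table holds whole numbers of another, unstated unit. Libraries were matched to genotype by their labels, and 0 columns of per-sample values were left out. Chromosome labels in the histone tables followed alphabetical order. As written, 7.48% of H3K27ac and 9.25% of H3K27me3 regions with a gene in the ISL1 table shared its chromosome; after relabelling, 100% did. Repeated rows (108 and 90) were dropped.

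Counts were fitted with edgeR 4.0.16 in R 4.3.3 (filterByExpr, TMM, quasi-likelihood test) over all regions, Isl1CKO against Control, and called at an adjusted p below 0.05. DESeq2 1.42.0, other scalings, no filter, the replicate number as a block and leaving out each library were alternatives. The code was tested on simulated data. Promoter regions are those annotated as promoter, which reach up to 3 kb from a start site. With a limit of 1 kb, 47 of the genes rather than 49 had an H3K27ac promoter region. Where a gene had several promoter regions, the one with the highest mean count was used. CPM are on TMM-scaled library sizes. Each library is a separate pool of animals, with 2 per group, so precision is limited.

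Regions named with values in every library were the promoters of a list of central genes, the 4 regions per direction with the smallest p in which the genotypes did not overlap, and the 3 with the highest Control CPM per kb. Further regions, such as the E2f2 promoter, the distal E2f7 region, Cdk14, Cdk16 and the Ccnd3 intron, were named after their values were seen. The genes and lists were chosen with earlier results of these data known. Sequences were taken from RefSeq (GRCm38.p6).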

Additional observations from a re-analysis of the deposited data

How the results depend on the processing

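Without Control replicate 1, 4 H3K27ac regions of these genes were called (3.00% of all regions): the promoters of E2f7 (-2.02, adjusted p = 0.0489) and Cdc14b (-1.46, 0.0337), the E2f2 exon at 13023 bp (1.70, 0.0217) and the Cdk14 region (5.29, 0.0303). The remaining pair of groups then rests on Control replicate 2, the library that stood apart, assumed to vary like the Isl1CKO group. Leaving out each other library called 0, so the range is 0 to 4; for H3K27me3 it was 0 throughout. The median log2 fold change of H3K27ac promoters was 0.05 without Control replicate 1, beside 0.20 over all genes. It was -0.18 without Control replicate 2 (0.00 over all genes). It was -0.04 without Isl1CKO replicate 1 (0.03 over all genes) and -0.12 without Isl1CKO replicate 2 (0.06 over all genes). It was 0.60 with sizes implied by the authors' fold changes, beside 0.72 over all genes. For the 4 H3K27me3 promoters the median was -0.23 with TMM, beside -0.14 over all genes' promoters with the mark. With the implied sizes it was -0.81, beside -0.70 over all genes, and the cause was not tested. At a mean count of at least 50, 18 genes had an H3K27ac promoter region. At an ISL1 value of at least 5, 3 windows passed at E14.5 and 0 at P9, and at 10, 0 and 0. Without the share of all windows at these limits, the counts cannot be read as high or low. Same-numbered replicates did not deviate together. Over all tested regions, the deviations of replicate 1 from its group mean had a correlation between Control and Isl1CKO of 0.0504 for H3K27ac and -0.0142 for H3K27me3. With 2 libraries per genotype this cannot show whether equal numbers share a litter or day, which the labels do not give. With the replicate block 0 regions were called for either mark. The promoter medians were then 0.07 for H3K27ac (0.10 over all genes) and -0.30 for H3K27me3 (-0.15 over all genes). With the implied sizes these H3K27ac promoters changed sign: Ccnb1 (0.16), Aurka (0.16), Ccna2 (0.08), Cdc42 (0.13), Ccne1 (0.51), Mki67 (0.19) and Ccnd1 (0.30); Mki67 was 0.01 with the replicate block, and H3K27me3 at Cdk6 was 0.08 on library totals. Leaving out single libraries turned the sign of H3K27ac at Cdk2 (-0.35 to 1.54), Ccnb1 (-0.92 to 0.10), Ccnd3 (-0.41 to 0.54), E2f1 (-0.27 to 0.68), Aurka (-2.21 to 0.68), Cdc26 (-0.27 to 0.84), Ccnd2 (-0.03 to 0.49), Ccne1 (-0.57 to 0.30) and Mki67 (-1.17 to 1.04), and of H3K27me3 at Cdk6 (-0.52 to 0.53) and Ccnd1 (-1.09 to 0.41). Cdk13 at 0.00 had no direction to keep (-0.16 to 0.13 without each library, 0.60 with the implied sizes). The other 259 values of named regions kept their direction and call. Low counts, in Isl1CKO replicate 1 above all, limit small regions.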

Other observations

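Genes that work beside those above were taken from pathway lists. In H3K27ac, edgeR called 0 promoters in any of the 5 lists, so the counts below are of measured values only. Of 7 promoters of the retinoblastoma axis and the DREAM complex, which hold E2F targets silent, 6 measured higher in Isl1CKO and the median log2 fold change was 0.42, beside 6780 of 12378 higher and a median of 0.07 over all genes. The median was 0.06 with Control replicate 2 left out and 0.78 with Control replicate 1 left out. Lin9, a core subunit of DREAM, measured 46.3 and 47.1 CPM in Control and 85.2 and 77.3 in Isl1CKO (0.79 ± 0.42 SE, adjusted p = 0.865). Tfdp2, a partner of E2F factors, measured 59.4 and 60.3 CPM in Control and 39.6 and 37.9 in Isl1CKO (-0.63 ± 0.48 SE), so close replicates lay apart in opposite directions at these genes.

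Replication genes measured lower more often with TMM scaling. At the replication fork and in nucleotide supply, 11 of 13 promoters measured lower (median -0.41), beside 5598 of 12378 over all genes. With the implied library sizes, 11 of these 13 measured higher (median 0.28, beside 0.72 over all genes), and without Control replicate 1 the median was 0.13, so the direction rested on the scaling and on that library. Prim2, a subunit of the primase, had 21.6 and 32.3 CPM in Control and 3.04 and 7.73 in Isl1CKO (-2.22 ± 0.88 SE, adjusted p = 0.850). Tk1, thymidine kinase, had 10.8 and 2.74 in Control and 30.4 and 24.6 in Isl1CKO (2.03 ± 0.89 SE, adjusted p = 0.850, edgeR). Its region lies at -2612 bp from the start. Of 7 genes of origin licensing and firing, 6 measured lower (median -0.28). With the implied sizes 5 of the 7 measured higher (median 0.43), and without Isl1CKO replicate 2, 4 measured lower. In this list, Orc3 of the origin recognition complex was at 69.5 and 105 CPM in Control and 59.3 and 40.1 in Isl1CKO. Of 8 mitosis and checkpoint genes, 6 measured higher (median 0.28), but 4 did without Control replicate 1 (median 0.16), and the median was 0.06 without Isl1CKO replicate 2.

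Cdkn1b, the inhibitor p27, had 124 and 130 CPM in Control and 116 and 119 in Isl1CKO (-0.12 ± 0.32 SE). For H3K27me3, Mybl2, an activator of mitotic genes, measured 68.7 and 52.3 CPM in Control and 35.9 and 11.1 in Isl1CKO (-1.36 ± 0.62 SE, adjusted p = 1.000, edgeR), while Cdkn2a measured 94.3 and 112 against 104 and 101. The genes named here were chosen after their values were seen.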
